A study of Homo sapiens with 3 samples.

Results

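The replication-independent histone variant genes considered here are 10 gene symbols chosen by name: H2AFZ, H2AFV, H2AFX, H2AFY, H2AFY2, H2AFJ, H3F3A, H3F3B, H1FX and H1F0. All 10 were found among the 35880 gene symbols of the table, with 60 transcripts among 185299. RNA came from untreated HEK293T cells, an established line derived from human embryonic kidney, grown in high-glucose medium with 10% fetal bovine serum to 70% confluence. RNA was captured on oligo-dT and sequenced as 3 libraries labelled biological replicates 1, 2 and 3, which form 1 group, so no treatment or genotype was compared. Abundance is in TPM, a share of all transcripts that is scaled for transcript length, and was summed over the transcripts of each symbol. Separate cultures are not named in the labels. The p-values below compare genes with fixed levels or with each other. They rest on the spread between these 3 libraries, and that spread may be technical.

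Nucleosomes wrap DNA around a core of histones H2A, H2B, H3 and H4, and linker histone H1 binds where DNA enters and leaves. The bulk of histones is made in S phase from clustered genes, and their messenger RNAs carry a stem-loop in place of the poly(A) tail. Variant genes are in general transcribed throughout the cell cycle, and most have introns or lie outside the clusters. Their messenger RNAs carry poly(A) tails, so oligo-dT captures them. H2AFX is an exception in part, since its messenger RNA also exists with a stem-loop end. Their products replace the bulk histones at particular sites: H3.3 at active genes, telomeres and pericentric heterochromatin, H2A.Z around gene starts, H2AX as the substrate that is phosphorylated beside DNA breaks, and macroH2A in silent chromatin.

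The partner genes H3F3A and H3F3B, and H2AFZ and H2AFV, encode identical or nearly identical proteins from coding sequences that differ far more. H3F3A (chromosome 1, 226061851 to 226072001, plus strand, hg38) and H3F3B (chromosome 17, 75776434 to 75785893, minus strand) both encode H3.3, with 0 differing residues of 136. Their coding sequences differed at 88 of 408 bases, and the longest run of identical bases was 14. The first 180 coding bases of transcripts H3F3A-203 and H3F3B-201 are shown because they carry this contrast, with capitals at the 36 positions where they differ (GENCODE release 29).
H3F3A-203: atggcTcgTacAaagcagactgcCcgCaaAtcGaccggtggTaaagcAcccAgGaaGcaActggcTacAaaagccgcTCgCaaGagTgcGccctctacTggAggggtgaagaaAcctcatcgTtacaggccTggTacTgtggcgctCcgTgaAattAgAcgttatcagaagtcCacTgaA
H3F3B-201: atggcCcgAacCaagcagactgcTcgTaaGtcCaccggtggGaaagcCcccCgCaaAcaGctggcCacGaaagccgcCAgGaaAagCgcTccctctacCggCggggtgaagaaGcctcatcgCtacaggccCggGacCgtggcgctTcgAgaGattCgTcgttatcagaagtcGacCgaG

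H2AFZ (chromosome 4, 99948086 to 99950388, minus strand) and H2AFV (chromosome 7, 44826791 to 44848083, minus strand) encode H2A.Z.1 and H2A.Z.2, which differed at 3 of 128 residues. Their coding sequences differed at 75 of 384 bases. The first 180 coding bases held 42 of those positions, again in capitals.
H2AFZ-201: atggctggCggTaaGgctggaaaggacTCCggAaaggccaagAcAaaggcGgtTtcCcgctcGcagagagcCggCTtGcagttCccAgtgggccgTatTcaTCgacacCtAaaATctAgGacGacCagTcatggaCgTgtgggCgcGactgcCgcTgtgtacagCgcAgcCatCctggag
H2AFV-202: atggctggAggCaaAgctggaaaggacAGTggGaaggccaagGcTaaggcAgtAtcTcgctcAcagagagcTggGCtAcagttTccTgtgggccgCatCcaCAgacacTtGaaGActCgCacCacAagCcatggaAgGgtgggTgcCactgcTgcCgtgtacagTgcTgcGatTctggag

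No 31-base word of the annotated transcripts was shared between H3F3A and H3F3B or between H2AFZ and H2AFV. Words of that length are the usual unit by which kallisto, the program used by the submitters, assigns reads. The macroH2A genes H2AFY and H2AFY2, whose proteins were identical at 68.3% of 372 aligned positions, and the linker genes H1FX and H1F0 (31% of 229) shared 0% of their words with any other symbol. The 2 remaining H2A variants, H2AFX and H2AFJ, were identical at 82.5% of 143 aligned positions, and shared 3.85% and 0.566% of their words with other symbols. H3F3B shared 5.99% of its words with H3F3C and none with any other symbol.

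The total of the deposited estimated counts was 33184885 for a column that names no library and whose values match replicate 1. Genes known from HEK293T were present, and all 7 of the markers examined lay above 1 TPM. They ranged from PAX2 at 1.57 ± 0.0836 TPM to vimentin, VIM, at 401 ± 8.62 TPM (SD, n = 3). By the limma test described below, 58.5% of all symbols tested also lay above 1 TPM. Above 10 TPM lay 5 of the 7, against 39.7% of all tested. WT1 (4.46 ± 0.565 TPM) and PAX2 lay below 10 TPM. Of 8 markers of blood, liver, endothelial, stromal, tubular and squamous cells, 4 were listed at 0 (CD3E, HBB, KRT5 and UMOD). The other 4 lay below 1 TPM, as did 33.9% of all symbols tested, the highest being DCN at 0.339 ± 0.0673 TPM. The number called below 1 TPM was 3 without replicate 1 and 3 without replicate 3.

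All 10 variant genes were expressed, from H2AFJ at 10.8 ± 1.05 TPM to H2AFZ at 1285 ± 18.1 TPM (SD, n = 3). In limma's moderated test of log2(TPM + 0.01) against a fixed level, adjusted by the Benjamini-Hochberg method over 21990 symbols above 0, 10 of 10 lay above 1 TPM, against 58.5% of all symbols tested. Above 10 TPM lay 9 of 10, against 39.7% of all tested, and above 100 TPM lay 7 of 10, against 7.03%. The median over all tested symbols was 4.29 TPM. Together the 10 genes held 0.483% ± 0.00153 of all TPM (SD, n = 3), and 78.4% ± 0.0917 of their own total came from H2AFZ, H3F3A and H3F3B. The coefficient of variation between libraries (CV) had a median of 1.86% over the 10, beside 2.30% over the 3399 genes with a mean of at least 50 TPM.

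**Figure D1:**
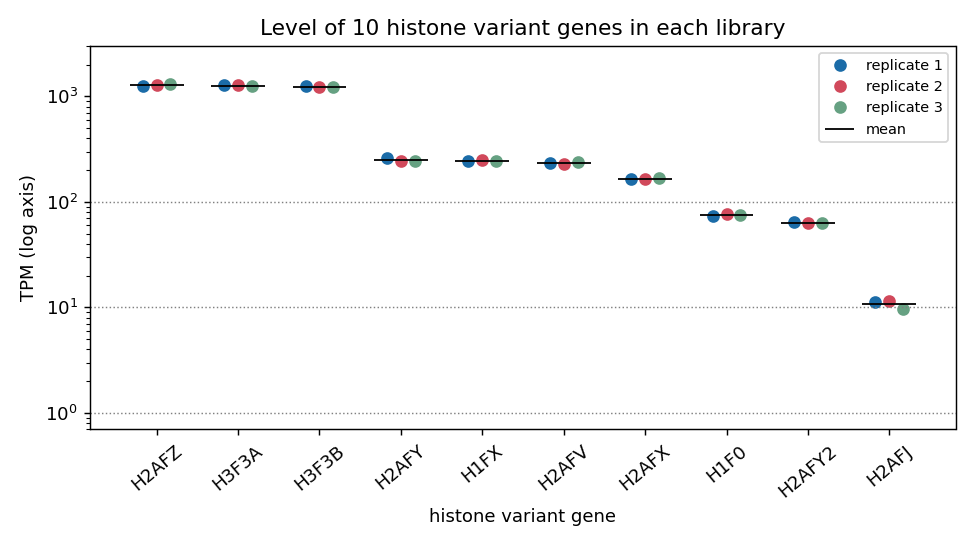
TPM of each variant gene (log axis) in replicates 1, 2 and 3 (points) with the mean (line); dotted lines mark 1, 10 and 100 TPM. H2AFZ, H3F3A and H3F3B lie together between 1215 and 1298 TPM, and H2AFJ is lowest at 9.63 to 11.6 TPM.

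H3.3, the variant that HIRA and DAXX-ATRX complexes deposit outside replication, was encoded by a pair of genes with a summed level of 2499 ± 29.2 TPM, beside 1517 ± 19.7 TPM for the H2A.Z genes. That order turned when all reads of each gene were placed on its longest coding model. This gave H3F3A 673 and H3F3B 325 TPM, against H2AFZ 1301 and H2AFV 55.0 TPM. For H3F3A that model was H3F3A-202 (1863 bases, 123 codons), which held 0.329% ± 0.0262 of the gene's TPM. The turn was thus obtained with a length that few H3F3A transcripts had. H3F3A had 1268, 1273 and 1256 TPM in replicates 1, 2 and 3, a mean of 1266 ± 8.82 TPM (SD, n = 3). H3F3B was listed at 1261, 1225 and 1215 TPM, a mean of 1234 ± 24.5 TPM. H3F3A was above H3F3B in 3 of 3 libraries, but the ranges of the genes overlapped and the mean difference was small (log2 difference 0.04 ± 0.03). H3F3A thus held 50.6% ± 0.451 of their sum. The exact sign permutation test over libraries gave p = 0.25 for this pair and for each of the other 4 pairs below, which is the smallest p that 3 libraries allow (two-sided).

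The size of the difference between the H3.3 genes depended on which transcripts were counted and on the transcript lengths used. Over coding transcripts only, the log2 difference was 0.25 ± 0.02. Nearly all H3F3A signal belonged to H3F3A-203, a 1088-base transcript that held 99.1% ± 0.0693 of the gene's TPM. H3F3B was spread over 13 transcripts, and H3F3B-208, a 576-base model that ends 2140 bases short of the gene's last 3′ end, held 45.0% ± 1.27 of TPM. H3F3B-201, which at 2705 bases is the longest coding model and runs to that 3′ end, held 10.1% ± 0.381 of TPM but 38.4% ± 1.02 of the estimated reads (TPM times effective length). Both models encode the same 136 codons. The deposited estimated counts were 26411 for H3F3A and 19497 for H3F3B.

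Per library, H3F3B-208 had 561, 541 and 565 TPM in replicates 1, 2 and 3, and H3F3B-201 had 123, 129 and 123 TPM. The order of these transcripts was the same in every library. Another 4 models passed 5% of the gene's TPM: H3F3B-205 (13.1% ± 1.25), H3F3B-213 (11.2% ± 0.652), H3F3B-210 (9.59% ± 0.214) and H3F3B-212 (8.27% ± 0.976). Of these, H3F3B-205 is annotated as incomplete at its 3′ end, H3F3B-213 is classed as non-coding, and H3F3B-210 and H3F3B-212 carry shorter coding sequences of 92 and 113 codons. When all reads of each gene were placed on its longest coding model (1863 bases for H3F3A-202, 2705 for H3F3B-201), a setting chosen after the data were seen, H3F3A stood at 673 ± 4.62 TPM and H3F3B at 325 ± 5.15 TPM. The difference was then 1.05 ± 0.02 on the log2 scale, or 2.07-fold. H3F3A-202 itself held 0.329% ± 0.0262 of H3F3A TPM, so this setting divides the reads of H3F3A by a length that few of its transcripts had.

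**Figure D2:**
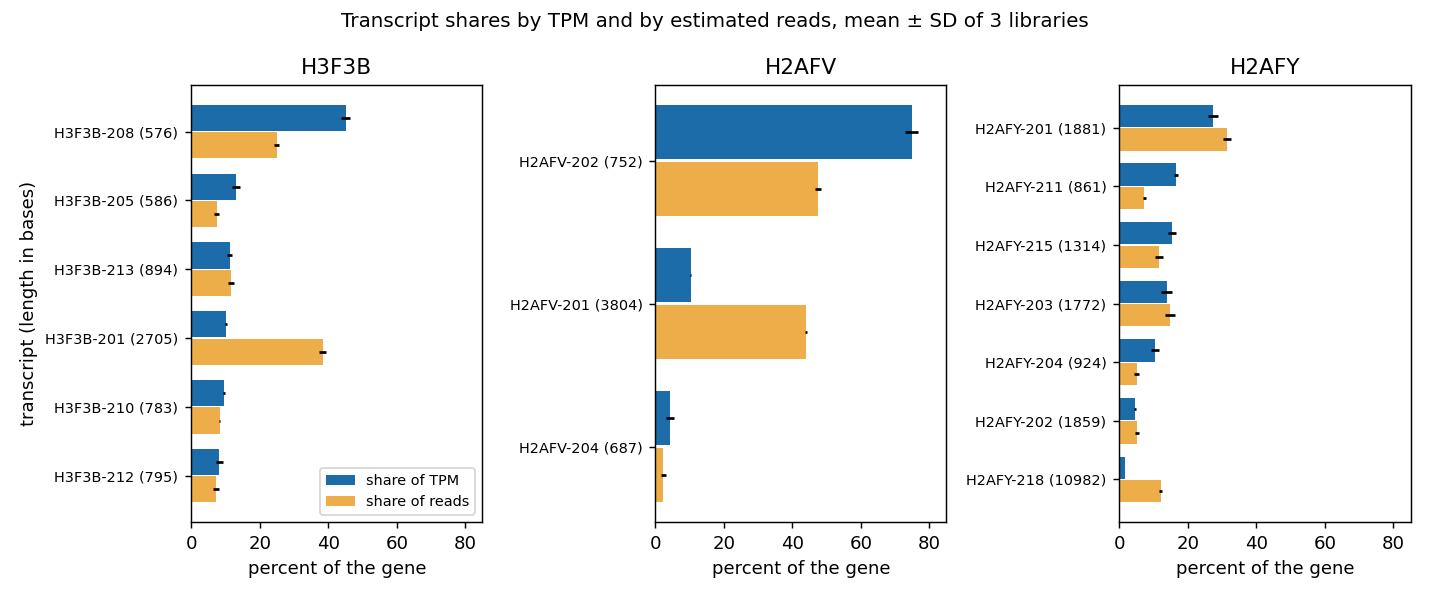
Share of each gene's TPM (blue) and of its estimated reads (yellow) held by each transcript that passed 5% of TPM in any library, plus H2AFY-218, shown after its values were seen because it holds over 10% of reads, as mean and SD of 3 libraries; transcript lengths in bases stand in parentheses. The longest coding models H3F3B-201 and H2AFV-201 hold about 10% of TPM but 38.4% and 44.1% of reads.

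A processed pseudogene of H3F3A was listed at a very different level in each library, while H3F3A itself had a CV of 0.697%. H3F3AP4 (chromosome 2, 174719908 to 174720318, plus strand, 411 bases) had 0.00046, 3.97 and 42.8 TPM in replicates 1, 2 and 3. Replicate 3 stood far above the others, and the gene was undecided against 1 TPM (limma adjusted p = 0.921). All 411 bases of H3F3AP4 were identical to bases 158 to 568 of H3F3A-203, its coding region with the stop codon, so 100% of its 31-base words also occur in H3F3A. In the other direction, 12.2% of H3F3A words occur in H3F3AP4. The signal of H3F3AP4 in replicate 3 was equal to 0.806% of the estimated reads of H3F3A, and in replicate 2 to 0.0738%.

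H3F3AP6 (chromosome 4, 139698144 to 139698554, minus strand), which shared 85% of its words with H3F3A, had 1.11, 2.20 and 3.03 TPM in replicates 1, 2 and 3. The other 13 of 15 named pseudogenes of the variant genes had mean levels below 1 TPM, and 5 of the 15 were listed at 0 in all libraries. Adding the pseudogenes to H3F3A gave 1284 ± 16.8 TPM in place of 1266 ± 8.82 TPM. Since the sequences are identical, the division of reads between H3F3A and H3F3AP4 is uncertain.

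**Figure D3:**
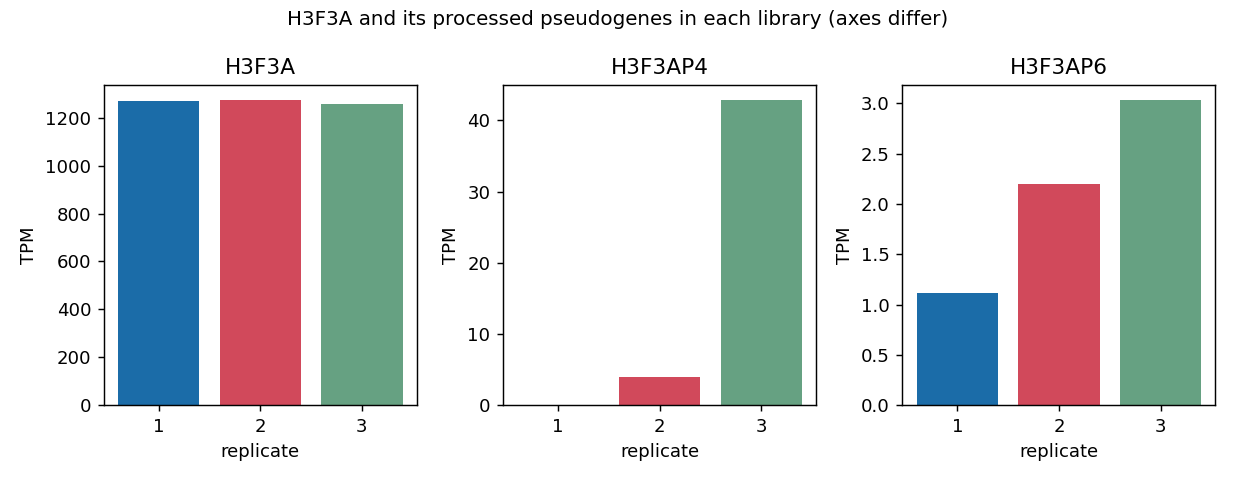
TPM of H3F3A, H3F3AP4 and H3F3AP6 in each library (bars; axes differ and start at 0). H3F3A stays between 1256 and 1273 TPM, while H3F3AP4 reaches 42.8 TPM in replicate 3 and 3.97 TPM in replicate 2.

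Among the H2A.Z genes, H2AFZ was several-fold above H2AFV in every library. H2AFZ had 1264, 1292 and 1298 TPM in replicates 1, 2 and 3 (1285 ± 18.1 TPM) and H2AFV had 232, 229 and 237 TPM (233 ± 4.17 TPM). The ranges were far apart: H2AFZ was 5.52-fold higher (log2 difference 2.47 ± 0.03, 3 of 3 libraries) and held 84.7% ± 0.25 of the summed H2A.Z level. Of H2AFZ, 98.4% ± 0.0704 of TPM was in H2AFZ-201, a coding transcript of 979 bases. The other 5 annotated models, all non-coding, each held under 1% of TPM. Of the 31-base words of H2AFZ, 7.84% occurred in other symbols, mostly in its pseudogene H2AFZP3 (5.54%).

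The main coding forms of H2AFV differ at the end of the protein. H2AFV-202 (752 bases, 128 codons) encodes the full-length H2A.Z.2.1, and H2AFV-201 (3804 bases, 114 codons) the shorter H2A.Z.2.2, known in primates, whose altered tail is reported to loosen it from the nucleosome. The forms share their first 108 codons and then have 6 (H2AFV-201) and 20 (H2AFV-202) codons of their own. Their coding tails are shown from 15 bases before they part, with the bases after that point in capitals.
H2AFV-201: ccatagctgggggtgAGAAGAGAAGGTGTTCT
H2AFV-202: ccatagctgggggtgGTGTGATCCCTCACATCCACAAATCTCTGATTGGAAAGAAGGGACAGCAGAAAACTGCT

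H2AFV-201 had 23.8, 23.8 and 25 TPM in replicates 1, 2 and 3, and H2AFV-202 had 169, 172 and 181 TPM. The shorter form therefore held 10.4% ± 0.144 of the gene's TPM, against 74.8% ± 1.87 for H2AFV-202. By estimated reads the shares were close, at 44.1% ± 0.289 for H2AFV-201 and 47.4% ± 0.844 for H2AFV-202. H2AFV-204 (687 bases, 102 codons) passed 5% of TPM in replicate 1 alone and averaged 4.30% ± 1.27. With all reads on H2AFV-201, H2AFV stood at 55.0 ± 1.27 TPM, and H2AFZ was 23.7-fold above it. This setting divides the reads of H2AFV-202 by a length of 3804 in place of 752 bases, so it understates H2AFV where those transcripts are short. Of the words of H2AFV, 6.98% occurred in other symbols, of which there were 1470. The largest part, 3.17%, was in the pseudogene H2AFVP1.

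H2AFX and H2AFJ, the other H2A variants, lay far apart. H2AFX (chromosome 11, 119093854 to 119095467, minus strand), the source of the γH2AX mark of DNA breaks, had 165, 166 and 167 TPM in replicates 1, 2 and 3 (166 ± 1.25 TPM). H2AFJ (chromosome 12, 14774383 to 14778002, plus strand), a variant reported to accumulate in senescent cells, was listed at 11.2, 11.6 and 9.63 TPM (10.8 ± 1.05 TPM). The ranges did not overlap, and H2AFX was 15.4-fold higher (log2 difference 3.94 ± 0.15).

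H2AFJ was the only variant gene not placed on either side of 10 TPM (limma adjusted p = 0.179), and it had the largest CV of the 10, 9.71%. It was called above 10 TPM without replicate 3 (limma adjusted p = 0.0293) and when mitochondrially encoded genes were left out of the scaling (limma adjusted p = 0.0363). Over all alternatives run, its limma adjusted p ranged between 0.0293 and 0.547. Its estimated count was 119, beside 5339 for H2AFX. The only H2AFJ transcript above 1 TPM was the coding H2AFJ-203 (98.0% ± 0.754 of TPM). H2AFX was divided between the unspliced H2AFX-202, at 86.2% ± 0.821, and H2AFX-201, at 13.8% ± 0.821, which has the same 143 codons in 2 exons and is annotated as a target of nonsense-mediated decay. H2AFX messenger RNA is known to exist both with a poly(A) tail and with a stem-loop end, and oligo-dT captures those with the tail.

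Of the macroH2A genes, whose proteins carry a large macro domain behind the histone fold, H2AFY stood above H2AFY2. H2AFY (macroH2A1, chromosome 5, 135333900 to 135399914, minus strand) had 259.9, 245 and 246 TPM in replicates 1, 2 and 3 (250.2 ± 8.42 TPM). H2AFY2 (macroH2A2, chromosome 10, 70052796 to 70112280, plus strand) was listed at 65.0, 62.8 and 62.9 TPM (63.5 ± 1.23 TPM). The ranges did not overlap, and H2AFY was 3.94-fold higher (log2 difference 1.98 ± 0.02). With all reads of each gene on its longest coding model the difference was 2.24-fold. When only coding transcripts were counted, H2AFY stood at 151 ± 7.57 TPM, since 39.7% ± 1.07 of its TPM lay in transcripts not annotated as coding. H2AFY2 was almost all in the coding H2AFY2-201 (99.0% ± 0.537).

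H2AFY is known for mutually exclusive exons that give macroH2A1.1, whose macro domain binds ADP-ribose, or macroH2A1.2, whose domain does not. The macroH2A1.1 exon lies at chr5:135350823-135350913 (91 bases) and the macroH2A1.2 exon at chr5:135352946-135353045 (100 bases), on the minus strand of hg38. They are shown because the split of H2AFY turns on them, with capitals at bases that differ or face a gap in a global alignment, which left 48 identical bases in 100 columns.
macroH2A1.1 exon: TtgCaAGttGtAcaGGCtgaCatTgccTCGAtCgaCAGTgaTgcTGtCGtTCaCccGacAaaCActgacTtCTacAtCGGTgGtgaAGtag
macroH2A1.2 exon: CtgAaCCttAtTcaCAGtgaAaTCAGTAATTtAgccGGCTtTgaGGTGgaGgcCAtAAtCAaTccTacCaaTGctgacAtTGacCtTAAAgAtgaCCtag

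Among coding transcripts the macroH2A1.2 exon prevailed. Coding transcripts with the macroH2A1.1 exon, which is H2AFY-202 alone (369 codons), were listed at 13.2, 10.8 and 11 TPM in replicates 1, 2 and 3. Those with the macroH2A1.2 exon, H2AFY-201, H2AFY-215 and H2AFY-217 (371 or 372 codons), summed to 116, 114 and 109 TPM. The macroH2A1.1 form was thus 9.34% ± 0.798 of the sum of coding transcripts that hold either exon, with no overlap between the forms in any library. By estimated reads the share was 10.0% ± 0.929.

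The share over all transcripts depended on 1 model that is not annotated as coding. H2AFY-211, an 861-base model with a retained intron that stops just past the macroH2A1.1 exon, had 44.7, 39.3 and 40.6 TPM in replicates 1, 2 and 3, several times the level of H2AFY-202. Over all transcripts that cover at least 90% of either exon, the macroH2A1.1 exon reached 58.6 ± 4.86 TPM and the macroH2A1.2 exon 117 ± 3.67 TPM, a share of 33.3% ± 1.69 for macroH2A1.1. Without H2AFY-211 the share over all transcripts was 12.7% ± 1.38. A further 60.7 ± 1.87 TPM, 24.3% ± 0.880 of the gene, lay in 3 transcripts that span the site with neither exon, mainly H2AFY-203 (34.6 ± 2.83 TPM) and H2AFY-204 (26 ± 3.74 TPM, 200 codons).

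**Figure D4:**
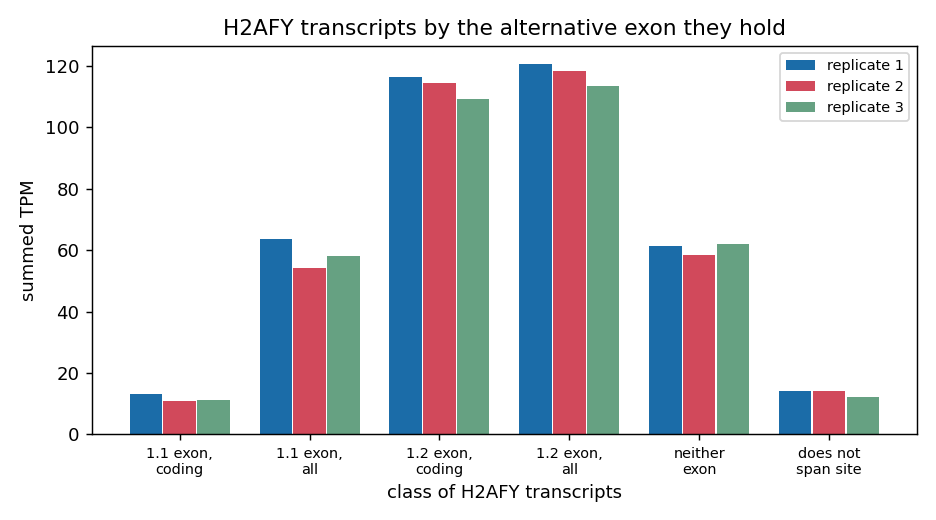
Summed TPM of H2AFY transcripts in each library (bars) by whether they hold the macroH2A1.1 exon, the macroH2A1.2 exon or neither, for coding and for all transcripts. Coding macroH2A1.1 stays at 10.8 to 13.2 TPM, and all transcripts with that exon reach 54.1 to 63.7 TPM.

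The linker histone genes have single exons and 1 transcript each, so their levels did not depend on a division among models. H1FX (H1.10, chromosome 3, 129314771 to 129316277, minus strand) had 242, 247 and 245 TPM in replicates 1, 2 and 3 (245 ± 2.26 TPM). H1F0 (H1.0, chromosome 22, 37805093 to 37807436, plus strand), known for rising as cells differentiate or stop dividing, was listed at 73.1, 76.7 and 74.6 TPM (74.8 ± 1.82 TPM). The ranges did not overlap, and H1FX was 3.27-fold higher (log2 difference 1.71 ± 0.02), holding 76.6% ± 0.278 of their sum.

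In the order of mean levels, H2AFZ, H3F3A and H3F3B formed the top step, and each overlapped its neighbour in range. A 4.93-fold step separated H3F3B from H2AFY. The size of that step moved with the transcripts counted: H3F3B stood at 1065 and H2AFY at 151 TPM over coding transcripts only, and at 325 and 142 TPM with all reads on the longest coding models. H2AFY and H1FX overlapped, whereas H1FX exceeded H2AFV in 3 of 3 libraries by 12 ± 5.17 TPM. From there each gene lay above the next without overlap as summed over all transcripts: H2AFV, H2AFX, H1F0, H2AFY2 and H2AFJ. This order also turned under those alternatives. Over coding transcripts only, H2AFY at 151 TPM lay below H1FX (245 TPM) and H2AFV (233 TPM). On the longest coding models H2AFV at 55.0 TPM lay below H2AFX (162 TPM), H1F0 (74.8 TPM) and H2AFY2 (63.1 TPM). H2AFY at 142 TPM lay below H1FX and H2AFX. The models used there, H2AFV-201 and H2AFY-217, held 10.4% ± 0.144 and 2.48% ± 0.128 of their gene's TPM. Most of the TPM of H2AFV and H2AFY thus lay in transcripts of other lengths. H1F0 and H2AFY2 lay below 100 TPM (limma adjusted p = 3.3e-05 and 5.87e-06), as did H2AFJ (limma adjusted p = 2.03e-06), against 92.2% of all symbols tested.

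The variant genes summed to far more than the symbols starting with HIST, mainly replication-dependent histone genes, in these oligo-dT libraries. The 10 variant genes summed to 4827 ± 15.3 TPM, against 332 ± 6.82 TPM for the 90 symbols starting with HIST, and were therefore 93.6% ± 0.129 of both. The HIST sum also covers H2B and H4, which none of the 10 encodes. By class, HIST symbols of H2A, H3 and H1 summed to 57.5 ± 4.01, 10.6 ± 0.328 and 25.5 ± 1.60 TPM. Some HIST symbols belong to the germ-cell variants below, and those were listed at 0. Of the HIST symbols, 8 lay above H2AFJ and 0 above H2AFX in mean TPM. Messenger RNAs with stem-loop ends are poorly captured on oligo-dT, so these shares do not give the makeup of histone messenger RNA in the cell.

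Genes that deposit or read the variants were examined in lists, whose counts stand beside those of all symbols tested, of which 58.5% lay above 1 TPM, 39.7% above 10 TPM and 7.03% above 100 TPM. Of 9 genes of H3.3 deposition, 9 lay above 1 TPM, 8 above 10 TPM and 1 above 100 TPM, with a median of 52.4 TPM. The share above 100 TPM, 11.1%, was near that of all symbols. The highest were the chromatin protein gene DEK at 242 ± 8.05 TPM, the H3.3 chaperone gene DAXX at 79.1 ± 3.42 TPM and the chaperone gene ASF1B at 66.6 ± 0.764 TPM. The lowest were the chaperone gene ASF1A at 31.4 ± 0.554 TPM and UBN2, of the HIRA complex, at 8.91 ± 0.166 TPM. UBN2 was called below 10 TPM (limma adjusted p = 0.0133), as were 57.1% of all symbols tested, and the call was lost without replicate 2.

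All 12 genes of H2A.Z exchange lay above 10 TPM and 5 lay above 100 TPM, with a median of 73.2 TPM. The shared ATPase subunits RUVBL2 and RUVBL1 led at 235 ± 1.91 and 191 ± 0.551 TPM, followed by the H2A.Z-removing chaperone gene ANP32E at 170 ± 2.36 TPM. The remodeler ATPase genes EP400 and INO80 were lowest at 26.9 ± 0.407 and 13.5 ± 0.230 TPM. Of 12 genes tied to H2AX phosphorylation, 12 lay above 1 TPM, 10 above 10 TPM and 1 above 100 TPM, with a median of 29.7 TPM. The number above 10 TPM was 9 without replicate 1 and 9 without replicate 3. The list includes the phosphatase genes EYA1 to EYA4. The share above 100 TPM, 8.33%, was near the 7.03% of all symbols. The kinase gene PRKDC reached 177 ± 1.77 TPM, the tyrosine kinase gene BAZ1B 77.0 ± 1.2 TPM and the mediator gene MDC1 72.0 ± 4.14 TPM. The phosphatase genes EYA2 (5.75 ± 0.239 TPM) and EYA1 (3.36 ± 0.0372 TPM) lay below 10 TPM.

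Of 8 genes tied to macroH2A by binding or by splicing of its alternative exons, 7 lay above 1 TPM, 6 above 10 TPM and 3 above 100 TPM, with a median of 91.6 TPM. PARP1, whose product makes ADP-ribose chains, reached 924 ± 20.2 TPM, and the helicase genes DDX5 and DDX17 reached 635 ± 7.87 and 324 ± 4.23 TPM. QKI, a splicing factor reported to favour the macroH2A1.1 exon, was listed at 93.7 ± 1.06 TPM, a gene named after its values were seen. MBNL2 stood at 7.23 ± 0.280 TPM, and APLF was undecided against 1 TPM at 0.858 ± 0.0465 TPM (limma adjusted p = 0.202). Of 14 general histone chaperone genes, 14 lay above 10 TPM and 11 above 100 TPM, with a median of 388 TPM, from CHAF1B (35.6 ± 1.30 TPM) and SUPT6H (64.9 ± 2.22 TPM) to NPM1 (4957 ± 31.5 TPM), PTMA (2568 ± 57.1 TPM) and NCL (1340.2 ± 25.3 TPM).

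Of the centromeric H3 variant gene CENPA and its loading factors, 5 of 5 lay above 10 TPM, against 39.7% of all symbols, and 0 above 100 TPM, against 7.03%, with a median of 31 TPM. MIS18A was highest at 80.1 ± 1.96 TPM, HJURP and OIP5 stood at 31.1 ± 3.05 and 31 ± 2.47 TPM, and CENPA at 30.4 ± 1.17 TPM. Variants known mainly from germ cells were near or at 0. Of 12 such genes, 6 were listed at 0 in all libraries, 5 lay below 1 TPM, and H2BFM was undecided at 2.29, 0.794 and 1.06 TPM in replicates 1, 2 and 3. Below 1 TPM lie 33.9% of all symbols tested. The number called below 1 TPM was 1, 1 and 2 without replicates 1, 2 and 3. H2AFB1 had 0, 0 and 0.665 TPM and H2AFB3 had 0.445, 0.183 and 6.56e-07 TPM in replicates 1, 2 and 3. These genes are near-identical copies, so the split between them is uncertain. H3F3C, a copy of H3F3B that encodes H3.5, shared 36.8% of its words with H3F3B and was listed at 0, 0 and 0.0998 TPM; it was named after its values were seen.

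**Figure D5:**
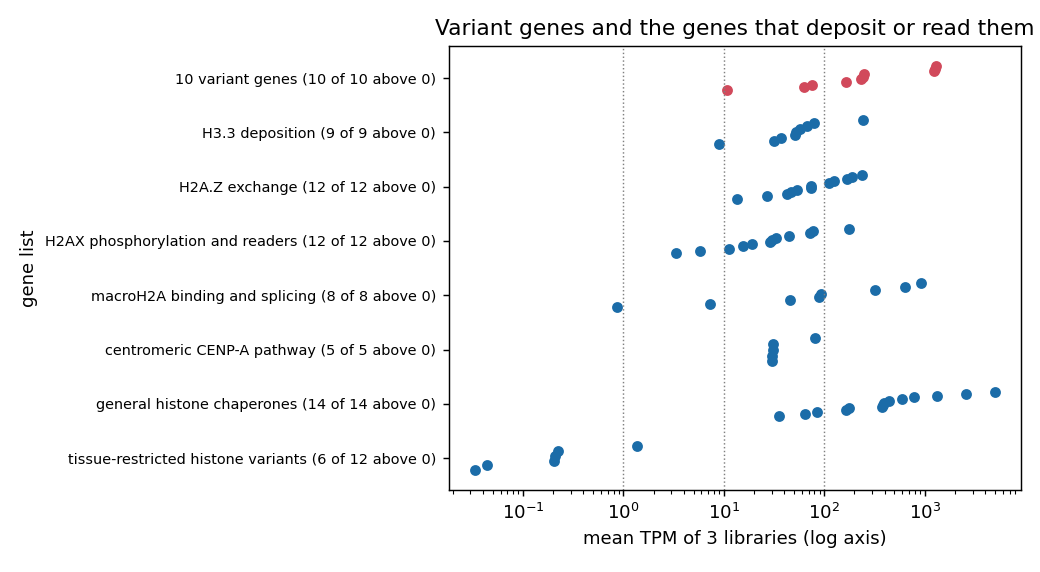
Mean TPM (log axis) of the 10 variant genes (red) and of the genes in 7 lists (blue), with genes listed at 0 left out and counted in the labels; dotted lines mark 1, 10 and 100 TPM. General histone chaperones reach 4957 TPM, and the tissue-restricted variants stay at or below 1.38 TPM.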

How the data were processed

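Untreated HEK293T RNA was sequenced in 3 directional oligo-dT libraries, per the labels' protocols. Transcripts were quantified with kallisto on hg38, per the submitters' processing notes. Its version, options, strand setting and transcript release are not given in the sources used here. Deposited was a table of TPM per library, scaled by the authors within each library, with the authors' mean TPM, lengths and estimated counts of a library that the file headers do not name. Those estimated counts, converted to TPM, match replicate 1 within a relative difference of 1.08e-05 for values above 0.01 TPM, so no count model was fitted.

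TPM was summed by symbol. Transcript classes, exons and sequences came from GENCODE release 29 (60 of 60 variant transcripts matched by versioned identifier), which may not be the authors' release. Estimated reads are TPM times the effective length deposited, which goes with replicate 1. Levels were tested with limma 3.58.1 (mean-variance trend, pseudocount 0.01, adjusted p under 0.05) in R 4.3.3, and the test was checked on simulated data. TMM factors came from edgeR 4.0.16. Alignments used Biopython 1.88, scoring 1, -1, -4 and -0.5 for match, mismatch, gap opening and extension. Depth per library is not recorded for replicates 2 and 3, so no counting intervals are given.

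The variant genes, lists and tests were chosen with earlier results of these data known. Named were the 10 genes, transcripts holding at least 5% of a gene's TPM in any library, pseudogenes of at least 1 TPM, and the 3 highest and 2 lowest genes of each list. The value of 1 gene that this rule names is not reported here. No gene was named for a similar pattern, since 3 libraries of 1 group give none. Alternatives were other pseudocounts (0.1 and 1), a filter at a mean of 0.1 TPM, TMM and median-of-ratios scaling, removal of mitochondrially encoded genes, no trend, coding transcripts only, pseudogenes added, and leaving out each replicate.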

Additional observations from a re-analysis of the deposited data

How the results depend on the processing

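Numbers of symbols and of variant genes above 1, 10 and 100 TPM stayed within 1.5 times the reported counts under every pseudocount, filter, scaling, trend and left-out replicate tried, and scaling factors lay between 0.997 and 1.004. Counting coding transcripts only gave levels of 1265 TPM for H2AFZ, 143 for H2AFX, 151 for H2AFY and 1065 for H3F3B, and put the main transcript's share at 100% for H2AFZ-201, H2AFX-202 and H2AFJ-203, at 45.6% for H2AFY-201 and at 52.2% for H3F3B-208. Adding pseudogenes gave 1284 TPM for H3F3A. Placing all reads on the longest coding transcript, a setting added after the data were seen, gave 673 TPM for H3F3A, 325 for H3F3B, 55.0 for H2AFV, 162 for H2AFX and 142 for H2AFY. For H3F3A, H3F3B, H2AFV and H2AFY, most of the TPM lay in other transcripts than that model. The share of macroH2A1.1 was 33.3% over all transcripts holding either exon. All 5 differences between partner genes kept their sign under the alternatives run. Leaving out a replicate gave 1 to 2 germ-cell variants below 1 TPM in place of 5, 3 to 5 below 10 TPM in place of 6, and 0 to 1 genes of H3.3 deposition below 10 TPM in place of 1. No paired analysis was possible because the libraries form 1 group. Depth of replicates 2 and 3 is unknown, so its effect on H2AFJ and the genes near 0 was not tested.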
